A study of Mus musculus with 16 samples.

Results

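The potassium channel genes of the mouse, which carry symbols starting with Kcn, were followed in muscle that had lost its nerve. Members were all rows of the read count table whose symbol starts with Kcn and a lower-case letter, leaving out names that contain -ps or end in os. The rule gave 97 of 55487 genes, of which 94 code for channel subunits or their partners and 3 are noncoding RNAs (Kcnmb4os1, Kcnmb4os2 and Kcnq1ot1). Denervation (DEN) was a unilateral transection of the sciatic nerve, and in sham surgery the nerve was located but left intact. All mice were male C57BL/6J (C57BL/6 in the labels), 2 to 6 months old, and were sampled 21 days after surgery. The 16 libraries formed 4 groups of 4. Isolated fibers of the extensor digitorum longus (EDL) gave the DEN fibers and the sham fibers, and intact tibialis anterior (TA) gave the whole muscle of each surgery. Fibers were freed with 0.2% collagenase and only non-contracted single fibers were pooled into a library, whereas whole muscle kept every cell type. Preparation and muscle therefore cannot be told apart between fibers (EDL) and whole muscle (TA). The study's reporting notes state that replicates were different mice, and the labels do not say whether EDL and TA came from the same mice.

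Potassium channels set the resting potential of a muscle fiber and end each action potential. Voltage-gated pores (Kcna, Kcnb, Kcnc, Kcnd, Kcnh, Kcnq) open on depolarisation, and silent subunits (Kcnf, Kcng, Kcns, Kcnv) form no channel alone but modify Kcnb pores. Inward rectifiers (Kcnj) and tandem-pore-domain channels (Kcnk) conduct at rest, and calcium- or sodium-activated pores (Kcnma, Kcnn, Kcnt) respond to ions inside the cell. Kcnu1 is placed with the last group by sequence, although its channel opens with alkaline pH in sperm. Accessory subunits (Kcnab, Kcne, Kcnip, Kcnmb) form no pore and change the gating of other members. Loss of the nerve is known to make fibers hyperexcitable and to bring apamin-sensitive small-conductance calcium-activated (SK) channels back to the fiber surface.

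Promoter sequence is shown for 5 members that the results turn on, chosen after their values were seen: 3 that were higher after DEN in both preparations (Kcnn3, Kcnk5, Kcne1l) and 2 that were lower in both (Kcng4, Kcna7). Each window runs 5′ to 3′ from 250 bases before the RefSeq transcription start to 50 bases after it (GRCm38.p6). Capitals mark the E-box CANNTG, the motif bound by basic helix-loop-helix factors such as MyoD and myogenin. The motif equals its own reverse complement, so 1 search covers both strands.
Kcnn3, chr3:89519914-89520213, plus strand: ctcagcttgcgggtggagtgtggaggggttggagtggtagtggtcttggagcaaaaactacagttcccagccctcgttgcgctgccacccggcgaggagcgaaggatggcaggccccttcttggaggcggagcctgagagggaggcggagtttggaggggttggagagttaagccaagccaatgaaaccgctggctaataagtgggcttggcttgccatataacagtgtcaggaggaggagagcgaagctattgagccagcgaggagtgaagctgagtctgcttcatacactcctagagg
Kcnk5, chr14:20181733-20182032, minus strand: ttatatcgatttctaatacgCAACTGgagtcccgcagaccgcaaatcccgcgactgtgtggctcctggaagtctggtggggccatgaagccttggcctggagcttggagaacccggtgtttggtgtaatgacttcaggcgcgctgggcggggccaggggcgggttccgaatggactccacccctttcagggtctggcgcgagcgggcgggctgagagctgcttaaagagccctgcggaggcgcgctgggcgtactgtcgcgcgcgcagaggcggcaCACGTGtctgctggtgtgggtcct
Kcne1l, chrX:142306149-142306448, minus strand: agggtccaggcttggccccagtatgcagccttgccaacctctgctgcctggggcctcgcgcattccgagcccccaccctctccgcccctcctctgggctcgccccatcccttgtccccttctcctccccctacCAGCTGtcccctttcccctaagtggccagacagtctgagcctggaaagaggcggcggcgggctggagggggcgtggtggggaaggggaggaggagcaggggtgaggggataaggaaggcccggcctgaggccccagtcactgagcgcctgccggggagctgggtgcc
Kcng4, chr8:119635631-119635930, minus strand: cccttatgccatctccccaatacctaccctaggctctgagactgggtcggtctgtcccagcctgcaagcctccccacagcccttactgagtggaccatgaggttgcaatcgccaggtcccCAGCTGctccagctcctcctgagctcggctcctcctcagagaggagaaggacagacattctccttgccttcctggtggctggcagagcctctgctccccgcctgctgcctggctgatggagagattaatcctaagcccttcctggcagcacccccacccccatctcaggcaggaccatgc
Kcna7, chr7:45405710-45406009, plus strand: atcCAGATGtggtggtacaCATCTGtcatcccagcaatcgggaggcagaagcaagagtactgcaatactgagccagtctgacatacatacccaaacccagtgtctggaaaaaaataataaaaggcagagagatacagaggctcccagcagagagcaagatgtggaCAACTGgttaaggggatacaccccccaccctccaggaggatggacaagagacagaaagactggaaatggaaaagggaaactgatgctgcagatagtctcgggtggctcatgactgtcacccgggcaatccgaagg
The letters CANNTG were absent from the Kcnn3 window and occurred 2 times in the Kcnk5 window, beginning 230 bases before and 26 bases after the start. They occurred 1 time each for Kcne1l (117 bases before the start) and Kcng4 (130 bases before), both as CAGCTG, and 3 times for Kcna7 (247, 231 and 85 bases before). For Kcna7 the gene annotated by GENCODE begins at 45405653, before the first base of the window (45405710). Its 3 motifs thus lie before the RefSeq start but inside the GENCODE gene. A window was held for 71 members. Of their 96 windows, 72.9% held CANNTG and 25.0% held CAGCTG, against 72.3% and 16.3% of all 32851 windows of this length. Among members with a window, CANNTG was found for 2 of 4 that were higher after DEN in both preparations and for 8 of 10 that were lower in both. These are counts of members with the motif in any of their windows, so the shares of windows given above are not their background.

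Libraries held 47570214 to 62297405 counts. Summed markers of skeletal muscle fibers (6 genes) reached 62991 to 75309 RPM (reads scaled to the total counts of the library) in DEN fibers and 111495 to 135069 RPM in sham fibers, and 77695 to 83109 RPM in DEN whole muscle and 126899 to 144211 RPM in sham whole muscle. Isolated fibers also carried markers of other cells. Schwann cell markers (8 genes) summed to 31.8 to 62.7 RPM in DEN fibers and 109 to 207 RPM in sham fibers, against 16.0 to 20.2 RPM in DEN whole muscle and 27.5 to 37.6 RPM in sham whole muscle. Smooth muscle and pericyte markers (8 genes) summed to 1055, 393, 874 and 1496 RPM in DEN fibers 1 to 4 and to 343 to 559 RPM in sham fibers, against 344 to 422 RPM in DEN whole muscle and 451 to 511 RPM in sham whole muscle. In bulk RNA, fewer cells of a type and less RNA per cell cannot be told apart.

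Before any test, 93 of the 97 members had at least 1 count in the 16 libraries. The remaining 4 (Kcnk18, Kcnmb3, Kcns2 and Kcnmb4os1) had none. A mean of at least 0.1 RPM in at least 1 group was reached by 68 members, at least 1 RPM by 36 and at least 10 RPM by 18. Counted by group, 1 RPM was reached by 34 members in DEN fibers and by 28 in sham fibers, against 27 in DEN whole muscle and 25 in sham whole muscle. The filter on low counts kept 57 members in at least 1 comparison. The highest group mean among the other 40 was 0.215 RPM, for the lymphocyte-associated Kcna3 in DEN fibers. T cell markers (5 genes) summed to 0.175 to 0.390 RPM there and to 0.579 to 1.38 RPM in DEN whole muscle, where Kcna3 had a lower mean.

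Levels of different genes were compared per kilobase of gene length (RPKM), as a description without a test. In sham muscle a few voltage-gated pores and inward rectifiers dominated. Sham fibers had 34.6 ± 5.81 RPKM of Kcna7 (a Shaker-type pore found mainly in muscle and heart), 34.5 ± 2.80 RPKM of Kcnj11 (the pore of the ATP-sensitive channel) and 32.2 ± 4.18 RPKM of Kcnc4 (a fast repolarising Shaw-type pore; SD, n = 4). Their ranges overlapped, so these 3 levels had no clear order. Sham whole muscle was led by Kcnc4 at 58.9 ± 9.52 RPKM, Kcna7 at 58.6 ± 2.70 RPKM and Kcnj11 at 42.6 ± 1.12 RPKM (SD, n = 4), and here Kcnj11 lay below both others in each library. After DEN, Kcnj11 had the highest mean in both preparations, with 20.3 ± 1.49 RPKM in DEN fibers and 25.4 ± 1.75 RPKM in DEN whole muscle (SD, n = 4). Kcnn3 stood behind Kcnj11 and Kcnc4 in DEN fibers with 15.8 ± 2.57 RPKM, and Kcnk5 stood behind Kcnj11 in DEN whole muscle with 23.1 ± 5.12 RPKM (SD, n = 4). Neither was among the 8 highest members of either sham group. The neighbours of Kcnn3 in DEN fibers, Kcnc4 and Kcnj2, overlapped it, as did Kcnj11 and Kcnc4 with Kcnk5 in DEN whole muscle.

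The summed RPKM of the 94 coding members was 169 ± 10.2 in DEN fibers compared with 201 ± 17.5 in sham fibers, and 156 ± 8.12 in DEN whole muscle and 271 ± 17 in sham whole muscle (SD, n = 4). Its makeup shifted between surgeries. Calcium- or sodium-activated pores took 13.5 ± 1.5% of the sum in DEN fibers compared with 4.35 ± 0.269% in sham fibers, and 9.26 ± 0.371% in DEN whole muscle and 2.66 ± 0.0732% in sham whole muscle (SD, n = 4). Tandem-pore-domain channels took 5.75 ± 1.56% in DEN fibers compared with 0.960 ± 0.328% in sham fibers, and 15.3 ± 2.53% in DEN whole muscle and 0.387 ± 0.0444% in sham whole muscle (SD, n = 4). Silent subunits took 1.80 ± 0.316% in DEN fibers compared with 6.84 ± 1.25% in sham fibers, and 4.53 ± 0.704% in DEN whole muscle and 10.1 ± 0.855% in sham whole muscle (SD, n = 4). Voltage-gated pores held the largest share in each group. DEN and sham libraries of a preparation did not overlap in any of these 3 shares.

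**Figure D1:**
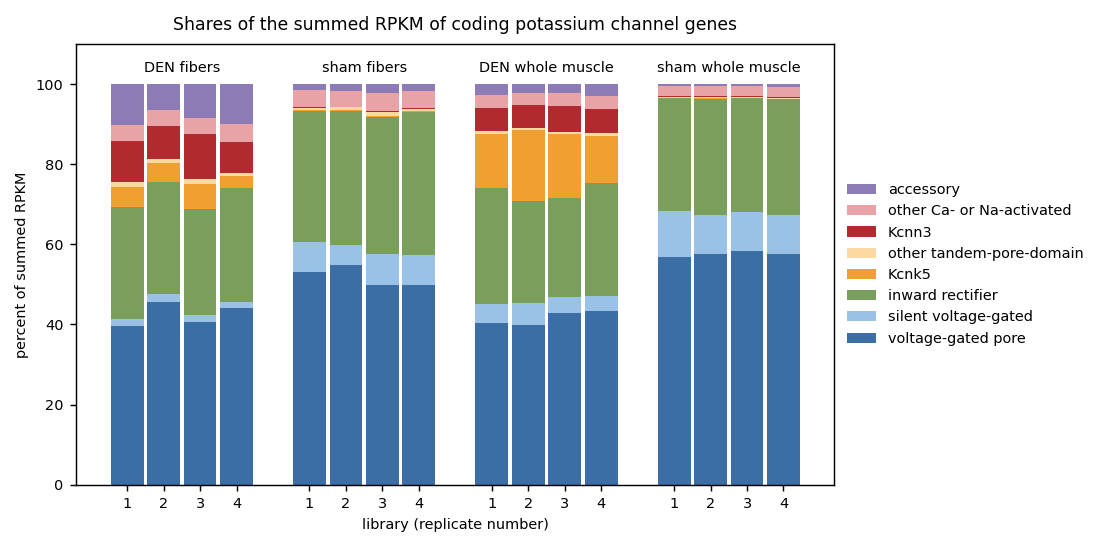
Percent of the summed RPKM of the 94 coding members taken by each subfamily, 1 stacked bar per library, with Kcnn3 and Kcnk5 drawn apart from the rest of their subfamilies. Kcnn3 held a mean of 9.41% of the DEN fiber sum and 0.262% of the sham fiber sum, and Kcnk5 held 14.7% in DEN whole muscle and 0.0649% in sham whole muscle.

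The first question was which members DEN changed in isolated fibers and which in whole muscle. In fibers 30 of 54 tested members changed (55.6%, against 54.1% of all 16724 genes tested; quasi-likelihood test of edgeR, adjusted p under 0.05 by Benjamini-Hochberg). Of these, 9 rose (16.7% of members, against 27.1% of all genes) and 21 fell (38.9%, against 27.0%). In whole muscle 33 of 47 changed (70.2%, against 66.2% of 16379 genes), with 9 higher (19.1%, against 34.0%) and 24 lower (51.1%, against 32.2%). Thus the share of members called was near the background and their direction leaned towards lower values. The median log2 fold change was -0.13 over tested members and 0.01 over all genes in fibers, and -0.67 over members and 0.02 over all genes in whole muscle. Scaling sets the balance of directions. The default scaling (TMM) centres the bulk of genes, while scaling to total counts alone moved the median of all genes to 0.49 in fibers and 0.45 in whole muscle. With total counts 18 members were higher and 15 lower in fibers, where 59.5% of all genes were higher and 8.93% lower. In whole muscle 13 members were higher and 19 lower, where 60.9% of all genes were higher and 13.9% lower. Members thus leaned towards lower values, relative to all genes, under both scalings. Fold changes below are TMM-scaled, and levels in RPM are scaled to total counts.

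Of the 46 members tested in both preparations, 4 rose in both (Kcnn3, Kcnk5, Kcne1l, Kcnq5) and 15 fell in both (among them Kcna1, Kcna2, Kcna7, Kcnc1, Kcnc4, Kcnf1, Kcng4, Kcnh7, Kcnj11, Kcnj12, Kcnma1, Kcnn1, Kcnn2). These are 8.70% and 32.6% of the 46, against 22.2% and 21.4% of the 15913 genes tested in both. With total counts all 4 and 12 of the 15 were still called in both (52.1% of all genes higher and 6.84% lower there), the exceptions including Kcna1 and Kcnma1. Kcnip2 fell in fibers and rose in whole muscle, and 10 members were called in neither. The 2 comparisons shared no library.

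**Figure D2:**
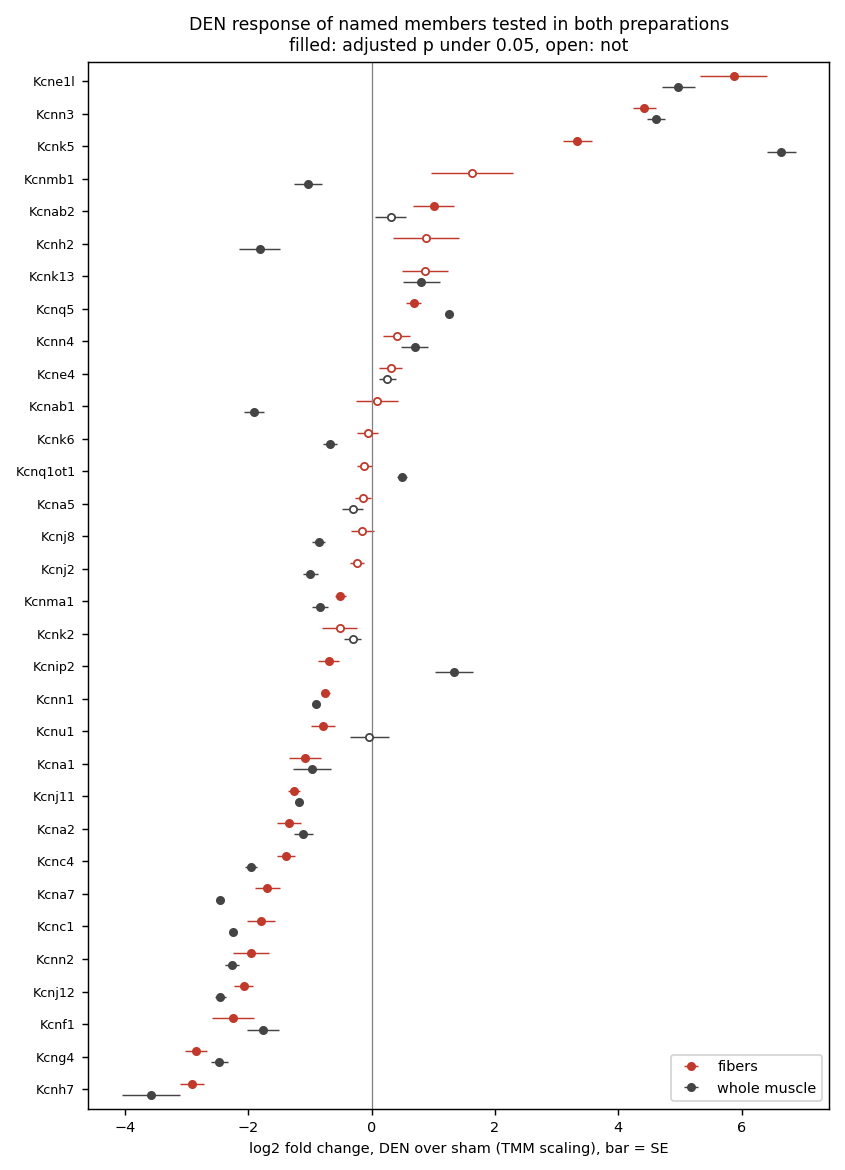
Log2 fold change of DEN over sham (x axis, bar = SE, TMM scaling) for the 32 members named in the text among the 46 tested in both preparations, ordered by the change in fibers, with filled points for an adjusted p under 0.05. The 3 members at the top, Kcne1l, Kcnn3 and Kcnk5, lie above 3 in both preparations, and 13 members are filled below 0 in both.

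Kcnn3 (ENSMUSG00000000794, chromosome 3, 89520164 to 89675132, plus strand, GRCm38) encodes the SK3 pore, which opens with intracellular calcium and carries an afterhyperpolarisation. It had 168, 159, 199 and 134 RPM in DEN fibers, against 6.64, 4.63, 4.36 and 6.12 RPM in sham fibers. In DEN whole muscle it had 95.2, 104, 106 and 95.7 RPM, against 4.2, 2.52, 2.2 and 3.28 RPM in sham whole muscle. Every DEN library lay far above every sham library of its preparation. The fitted change was 21.4-fold in fibers (log2 4.42 ± 0.18 SE, adjusted p = 2.06e-07) and 24.4-fold in whole muscle (log2 4.61 ± 0.15 SE, adjusted p = 2.04e-09). The difference between these responses was -0.20 ± 0.24 (SE; adjusted p = 0.603).

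The other SK genes moved the opposite way, so the makeup of the SK group turned over. Kcnn1 (SK1) had 15.5, 16.5, 15.5 and 16.3 RPM in DEN fibers and 18.5, 19.0, 19.5 and 19.6 RPM in sham fibers. In whole muscle it had 17, 17, 16.5 and 16.2 RPM after DEN and 25.2, 23.1, 22.1 and 22.6 RPM after sham. It fell by 0.75 ± 0.07 in fibers and by 0.91 ± 0.05 in whole muscle on the log2 scale (SE). Kcnn2 (SK2) fell more, 3.88-fold in fibers and 4.81-fold in whole muscle (adjusted p = 0.00032 and 2.45e-08). Its libraries held 1.62 to 4.14 RPM in DEN fibers and 6.63 to 9.65 RPM in sham fibers, and 1.29 to 1.74 RPM in DEN whole muscle and 5.25 to 6.27 RPM in sham whole muscle. Per length, Kcnn3 made up 80.1 ± 3.39% of the summed RPKM of Kcnn1 to Kcnn3 in DEN fibers compared with 9.05 ± 1.82% in sham fibers, and 71.4 ± 1.32% in DEN whole muscle and 4.73 ± 1.08% in sham whole muscle (SD, n = 4). Kcnn4, the intermediate-conductance channel of blood cells and epithelia, had 1.02 to 1.44 RPM in DEN fibers and 0.452 to 0.746 RPM in sham fibers and was not called there (0.40 ± 0.22, adjusted p = 0.150), although these ranges do not overlap and with total counts it was called (0.89, adjusted p = 0.00407). It rose in whole muscle by 0.70 ± 0.22 (adjusted p = 0.0161), and lost the call without sham library 3 (0.54, adjusted p = 0.0540). Macrophage markers (8 genes) were also higher after DEN, at 78.4 to 118 RPM in DEN fibers and 14.8 to 31.6 RPM in sham fibers, and 74.5 to 85.6 RPM in DEN whole muscle and 28.1 to 58.6 RPM in sham whole muscle, and their part in Kcnn4 was not tested.

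Kcnk5 (ENSMUSG00000023243, chromosome 14, 20140057 to 20181809, minus strand) encodes a background channel opened by alkaline pH and best known from kidney. It had 27.4, 29.9, 36.2 and 15.7 RPM in DEN fibers, against 1.34, 2.37, 2.27 and 1.68 RPM in sham fibers. In DEN whole muscle it had 71.8, 100.5, 83.5 and 59.5 RPM, against 0.433, 0.946, 0.578 and 0.431 RPM in sham whole muscle. The order of the preparations was thus opposite in the DEN and the sham groups. The rise was 10.1-fold in fibers (log2 3.34 ± 0.24 SE, adjusted p = 4.05e-06) and 99.9-fold in whole muscle (log2 6.64 ± 0.23 SE, adjusted p = 3.17e-09). The test of the difference gave -3.32 ± 0.38 (SE; adjusted p = 2.9e-05). Of 13 tandem-pore-domain channels other than Kcnk5, 5 were tested in fibers, where Kcnk1 fell, and 4 in whole muscle, where Kcnk13 rose and Kcnk6 fell. The call of Kcnk13 in whole muscle (0.81 ± 0.30, adjusted p = 0.0366) was not made by DESeq2 (adjusted p = 0.109) and ended when any of 6 of the 8 libraries was left out (adjusted p up to 0.117). Kcnk2, a mechanosensitive background channel, was called in neither, with 1.93 to 2.46 RPM in DEN fibers and 1.30 to 4.10 RPM in sham fibers, and 1.47 to 2.07 RPM in DEN whole muscle and 1.42 to 1.96 RPM in sham whole muscle.

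Kcne1l (ENSMUSG00000090122, chromosome X, 142304752 to 142306294, minus strand) encodes a single-span accessory subunit of voltage-gated pores. It had 13.3, 11.2, 13.1 and 15.5 RPM in DEN fibers, against 0.0206, 0.101, 0.0174 and 0.489 RPM in sham fibers. In DEN whole muscle it had 3.5, 2.81, 3.47 and 4.04 RPM, against 0.0901, 0.0631, 0.0321 and 0.133 RPM in sham whole muscle. It was thus close to the detection limit in sham muscle and present in each DEN library. Kcne1l passed the filter on low counts through the DEN groups, where it was higher, and did not pass it between the sham groups. The log2 fold change was 5.87 ± 0.54 in fibers (SE; adjusted p = 1.75e-05) and 4.97 ± 0.26 in whole muscle (SE; adjusted p = 5.69e-08). Sham fiber library 4 held most of the sham counts, and without it the change in fibers was 7.68.

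The KCNQ pores carry slow currents that limit repeated firing. Kcnq5 had 59.5, 68.3, 58.5 and 65.5 RPM in DEN fibers and 22.3, 34.9, 26.2 and 29.4 RPM in sham fibers, and 48.6, 54.5, 51.1 and 48.5 RPM in DEN whole muscle and 17.2, 16.5, 15.7 and 13.8 RPM in sham whole muscle. It rose 1.6-fold in fibers (log2 0.68 ± 0.12 SE) and 2.39-fold in whole muscle (log2 1.25 ± 0.07 SE), and the responses differed (-0.59 ± 0.15, adjusted p = 0.0114). Kcnq3, tested in fibers only, rose 2.49-fold (log2 1.31 ± 0.20 SE) with 0.856 to 1.25 RPM in DEN fibers and 0.248 to 0.342 RPM in sham fibers. At lower levels still, the ether-a-go-go pore Kcnh1 had 0.193 to 0.642 RPM in DEN fibers and 0.0206 to 0.0603 RPM in sham fibers (2.85 ± 0.48, adjusted p = 0.000735). Kcnh1 passed the filter on low counts through DEN fibers, where it was higher. Without DEN fiber library 3 it did not pass the filter and was not tested.

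**Figure D3:**
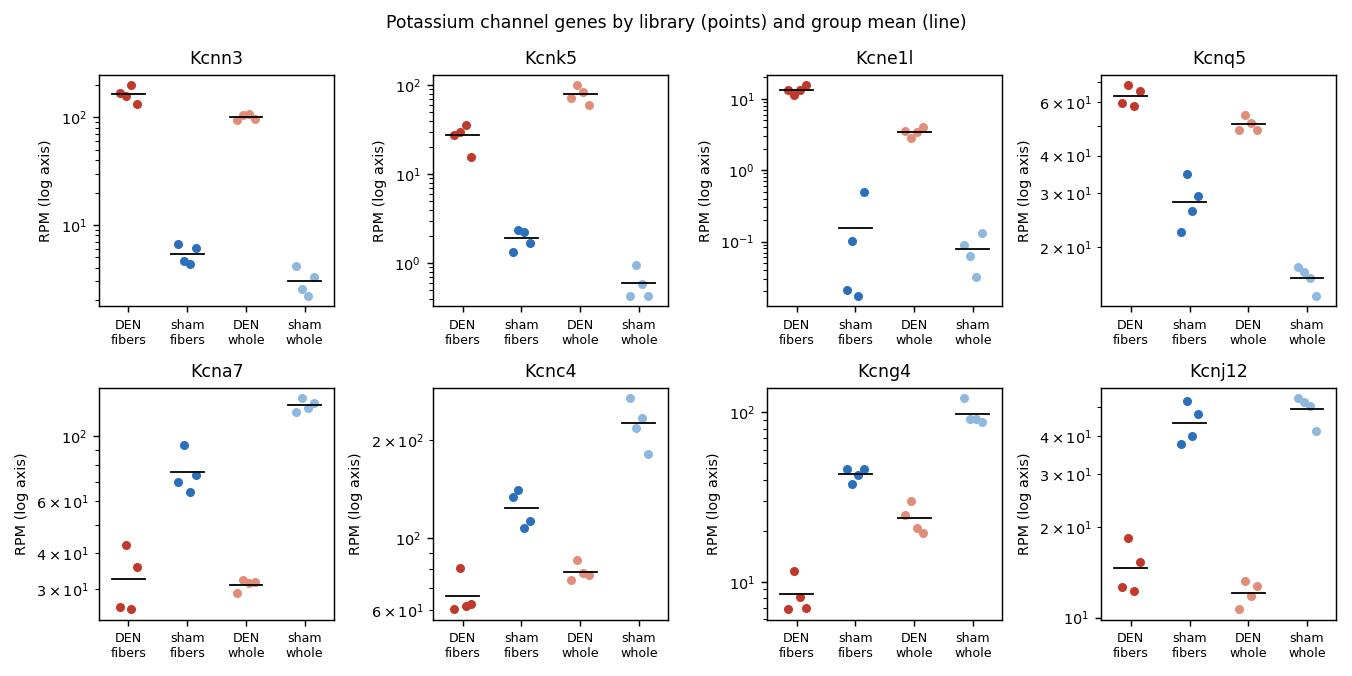
RPM of 8 members on a log axis in each library (points) with the mean of each group (line), from left to right fibers after DEN and sham, then whole muscle after DEN and sham. In the upper row (Kcnn3, Kcnk5, Kcne1l, Kcnq5) all DEN points lie above the sham points of their preparation, and in the lower row (Kcna7, Kcnc4, Kcng4, Kcnj12) all lie below.

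The abundant voltage-gated pores of sham muscle fell. Kcna7 (ENSMUSG00000038201, chromosome 7, 45405653 to 45409763, plus strand) had 26.1, 42.6, 25.7 and 35.8 RPM in DEN fibers and 69.9, 93.5, 64.4 and 73.8 RPM in sham fibers. In whole muscle it had 29.1, 32.2, 31.7 and 31.7 RPM after DEN and 121, 135, 125 and 130 RPM after sham. It fell by 1.69 ± 0.20 in fibers and by 2.47 ± 0.05 in whole muscle on the log2 scale (SE; adjusted p = 7.35e-05 and 2.21e-10), and the responses differed by 0.76 ± 0.21 (adjusted p = 0.0209). After DEN the preparations thus held similar levels, while sham whole muscle lay above sham fibers. Kcnc4 (ENSMUSG00000027895, chromosome 3, 107438303 to 107459552, minus strand) had 60.3, 80.8, 61.8 and 62.7 RPM in DEN fibers and 134, 140, 107 and 113 RPM in sham fibers. Its whole muscle levels were 74.3, 85.4, 77.9 and 76.9 RPM after DEN and 270, 218, 234 and 182 RPM after sham. It fell by 1.39 ± 0.14 in fibers and by 1.95 ± 0.10 in whole muscle (SE). Its partner in fast channels, Kcnc1, fell by 1.79 ± 0.23 and by 2.25 ± 0.05 (SE), with 46.4 to 89.5 RPM in DEN fibers and 133 to 207 RPM in sham fibers, and 49.1 to 55.8 RPM in DEN whole muscle and 179 to 192 RPM in sham whole muscle. No DEN library of Kcna7, Kcnc4 or Kcnc1 reached a sham library of its preparation.

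Kcng4, a silent subunit (ENSMUSG00000045246, chromosome 8, 119623854 to 119635680, minus strand), showed the largest fall among members above 10 RPM in sham fibers. It had 6.89, 11.6, 8.15 and 7.04 RPM in DEN fibers and 46.3, 37.6, 42.3 and 46.1 RPM in sham fibers. Whole muscle had 24.7, 30.1, 20.7 and 19.4 RPM after DEN and 120, 91.5, 91.1 and 87.8 RPM after sham. The fall was 7.19-fold in fibers (log2 -2.85 ± 0.18 SE, adjusted p = 2e-06) and 5.54-fold in whole muscle (log2 -2.47 ± 0.14 SE, adjusted p = 7.94e-08). Kcnf1, another silent subunit, fell by 2.25 ± 0.34 in fibers and by 1.76 ± 0.26 in whole muscle (SE). It had 1.44 to 3.30 RPM in DEN fibers and 5.09 to 14.7 RPM in sham fibers, and 2.03 to 4.68 RPM in DEN whole muscle and 5.68 to 10.9 RPM in sham whole muscle.

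Of the inward rectifiers that hold the fiber at rest, Kcnj12 fell in both preparations and Kcnj2 in whole muscle. Kcnj12 (ENSMUSG00000042529, chromosome 11, 61022564 to 61071131, plus strand), a strong inward rectifier, had 12.6, 18.3, 12.2 and 15.3 RPM in DEN fibers and 37.8, 52.3, 40.0 and 47.3 RPM in sham fibers. Whole muscle had 10.7, 13.2, 11.8 and 12.7 RPM after DEN and 53.4, 51.8, 50.3 and 41.5 RPM after sham. It fell 4.22-fold in fibers (log2 -2.08 ± 0.16 SE, adjusted p = 5.98e-06) and 5.49-fold in whole muscle (log2 -2.46 ± 0.09 SE, adjusted p = 3.4e-09). The classical muscle inward rectifier Kcnj2 was not called in fibers (-0.24 ± 0.12, adjusted p = 0.111), with 73.8, 93.7, 81.0 and 91.8 RPM in DEN fibers and 70.4, 80.8, 62.9 and 72.4 RPM in sham fibers. With total counts the direction turned and the change was called (0.25, adjusted p = 0.0462). It fell in whole muscle (-1.0 ± 0.12, adjusted p = 3.31e-05), with 35.9, 30.6, 28.1 and 28.2 RPM after DEN and 55.2, 37.8, 49.9 and 38.9 RPM after sham, and the test of the difference gave 0.75 ± 0.18 (adjusted p = 0.0104). The ratio between both rectifiers thus shifted towards Kcnj2 after DEN in both preparations. Per length, Kcnj2 took 9.26 ± 0.729% and Kcnj12 3.14 ± 0.458% of the summed RPKM in DEN fibers, against 6.56 ± 0.285% and 8.01 ± 0.666% in sham fibers (SD, n = 4). In whole muscle Kcnj2 took 3.61 ± 0.447% and Kcnj12 2.81 ± 0.243% after DEN, against 3.07 ± 0.435% and 6.61 ± 0.399% after sham (SD, n = 4).

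The ATP-sensitive channel joins a Kcnj11 or Kcnj8 pore with a sulfonylurea receptor, Abcc8 or Abcc9. Kcnj11 had 72.1, 80.7, 68.3 and 77.1 RPM in DEN fibers and 119, 136, 117 and 136 RPM in sham fibers, and 97.4, 92.7, 84.4 and 98.4 RPM in DEN whole muscle and 159, 161, 153 and 153 RPM in sham whole muscle. It fell by 1.25 ± 0.10 in fibers and by 1.18 ± 0.05 in whole muscle (SE). Kcnj8, the pore of vascular smooth muscle and pericytes, was not called in fibers (-0.15 ± 0.19, adjusted p = 0.528) and fell in whole muscle (-0.86 ± 0.10, adjusted p = 3.07e-05). It had 9.37 to 16.0 RPM in DEN fibers and 7.75 to 13.7 RPM in sham fibers, and 13.7 to 19.2 RPM in DEN whole muscle and 19.5 to 23.6 RPM in sham whole muscle. The receptor Abcc9 fell less than the Kcnj11 pore, by 0.30 ± 0.07 in fibers and by 0.42 ± 0.08 in whole muscle (SE), directions that turn with total counts (0.19 and 0.01, neither called). Abcc8 was not called in fibers (-0.24 ± 0.19) and rose in whole muscle (0.96 ± 0.18, adjusted p = 0.000755), with 7.49 to 8.76 RPM after DEN and 2.25 to 4.62 RPM after sham.

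The large-conductance calcium-activated channel is built from the Kcnma1 pore with beta (Kcnmb) or gamma (Lrrc) subunits. Kcnma1 had 35.2, 40.3, 40.1 and 44.7 RPM in DEN fibers and 38.6, 43.6, 41.3 and 39.4 RPM in sham fibers, which overlap. After TMM scaling it fell by 0.51 ± 0.08 in fibers (SE; adjusted p = 0.000713), and with total counts that change was -0.02 (adjusted p = 0.825). In whole muscle it had 10.5, 8.46, 11.0 and 11.9 RPM after DEN and 12.2, 15.6, 15.7 and 12 RPM after sham (-0.84 ± 0.13, adjusted p = 0.000192). Its gamma subunit gene Lrrc38 fell much further. Lrrc38 had 6.13, 9.52, 5.48 and 6.43 RPM in DEN fibers and 49.8, 66.2, 59.2 and 59.9 RPM in sham fibers, and 4.50 to 7.48 RPM in DEN whole muscle and 36.6 to 53.3 RPM in sham whole muscle. These are falls of 11.9-fold in fibers (log2 -3.57 ± 0.18 SE, adjusted p = 5.28e-07) and 10.5-fold in whole muscle (log2 -3.39 ± 0.15 SE, adjusted p = 1.67e-08). Of 20 listed partners and pumps without a Kcn symbol, 18 were tested. In fibers 3 rose and 6 fell, and in whole muscle 3 rose and 7 fell, where 54.1% and 66.2% of all genes were called. The sodium pump subunit Atp1b3 rose in both (0.63 ± 0.07 in fibers and 0.83 ± 0.06 in whole muscle, SE).

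In DEN fibers, Kcnmb1, Kcnh2 and Kcnab1 had the same highest and lowest library as the summed markers of smooth muscle. So did Kcne1l, whose levels are given above, and how many members or genes share this order was not counted. Kcnmb1, the beta subunit of smooth muscle, had 1.01, 0.298, 0.919 and 2.90 RPM in DEN fibers 1 to 4 and 0.268, 0.101, 0.330 and 0.470 RPM in sham fibers (1.63 ± 0.67, adjusted p = 0.0627; called by DESeq2, adjusted p = 0.0196). Kcnh2, a slowly deactivating pore best known from heart, had 2.43, 1.11, 2.69 and 6.65 RPM in DEN fibers and 2.08, 0.744, 0.989 and 1.14 RPM in sham fibers (0.88 ± 0.53, adjusted p = 0.192). Kcnab1, a cytoplasmic beta subunit of Kcna pores, had 4.42, 1.54, 4.52 and 6.61 RPM in DEN fibers and 2.79 to 2.95 RPM in sham fibers (0.08 ± 0.34, adjusted p = 0.859). For each of these genes DEN fiber library 4 was highest and library 2 lowest, as for the summed smooth muscle markers (1496 and 393 RPM). Sham fibers did not repeat this. There the markers were lowest in library 4 (343 RPM), where Kcnmb1 was highest, and highest in library 3 (559 RPM), whereas Kcnh2 was highest in library 1. Of other members known from smooth muscle, Kcnj8 was not called in fibers and fell in whole muscle, and Kcna5 was called in neither. In whole muscle all 3 fell, by 1.04 ± 0.22 for Kcnmb1, by 1.82 ± 0.33 for Kcnh2 and by 1.91 ± 0.16 for Kcnab1 (SE), and all 8 smooth muscle markers fell there too. The fall of Kcnmb1 was not called with all 16 libraries in 1 fit (-1.03, adjusted p = 0.134). The tests of the difference between preparations gave 2.65 ± 0.78 for Kcnmb1, 2.68 ± 0.69 for Kcnh2 and 1.98 ± 0.42 for Kcnab1 (SE; adjusted p = 0.0270, 0.0134 and 0.00464). Without DEN fiber library 4 they were 1.87, 2.05 and 1.70, and all 3 remained called. The part of smooth muscle RNA in these differences was not tested. No defining smooth muscle marker was at 0 in any group.

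Some low members of axons and sensory neurons fell in fibers, as did most markers of Schwann cells, the glia that ensheathe axons. Kcna1 and Kcna2 form the channels beside the nodes of myelinated axons. Kcna1 had 1.63, 1.49, 3.12 and 1.07 RPM in DEN fibers and 2.43, 2.84, 3.28 and 2.39 RPM in sham fibers (-1.08 ± 0.26, adjusted p = 0.00563; not called with total counts). Kcna2 had 2.12 to 3.48 RPM in DEN fibers and 3.61 to 6.84 RPM in sham fibers (-1.34 ± 0.19, adjusted p = 0.000251). Kcns1, a silent subunit of sensory neurons, had 0.0779, 0.0877, 0.0901 and 0.0585 RPM in DEN fibers, against 0.804, 0.422, 0.417 and 0.362 RPM in sham fibers, an 8.69-fold fall (log2 -3.12 ± 0.39 SE, adjusted p = 0.000107). In whole muscle Kcns1 was at 0.0931 to 0.142 RPM after DEN and 0.0631 to 0.108 RPM after sham and did not pass the filter. In the fiber test it passed through sham fibers, the group where it was higher. Its libraries did not follow the summed Schwann cell markers, since it was highest in sham fiber library 1 (0.804 RPM), where their sum was lowest in that group (109 RPM). Kcnh7 fell in both preparations, by 2.91 ± 0.20 in fibers and by 3.58 ± 0.47 in whole muscle (SE), with 0.216 to 0.351 RPM in DEN fibers and 1.32 to 1.61 RPM in sham fibers. It held only 464 counts over all 16 libraries. In whole muscle it passed the filter on low counts through the sham group, where it was higher. Of 8 Schwann cell markers, 6 fell in fibers and 4 fell in whole muscle, where 1 rose, and their part in these members was not tested. Not every member higher in sham fibers than in sham whole muscle fell in DEN fibers. Kcnq3, higher there by 1.91 ± 0.33 (SE), rose, and Kcne4, higher by 2.26 ± 0.17 (SE), was not called (0.31 ± 0.19, adjusted p = 0.193).

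**Figure D4:**
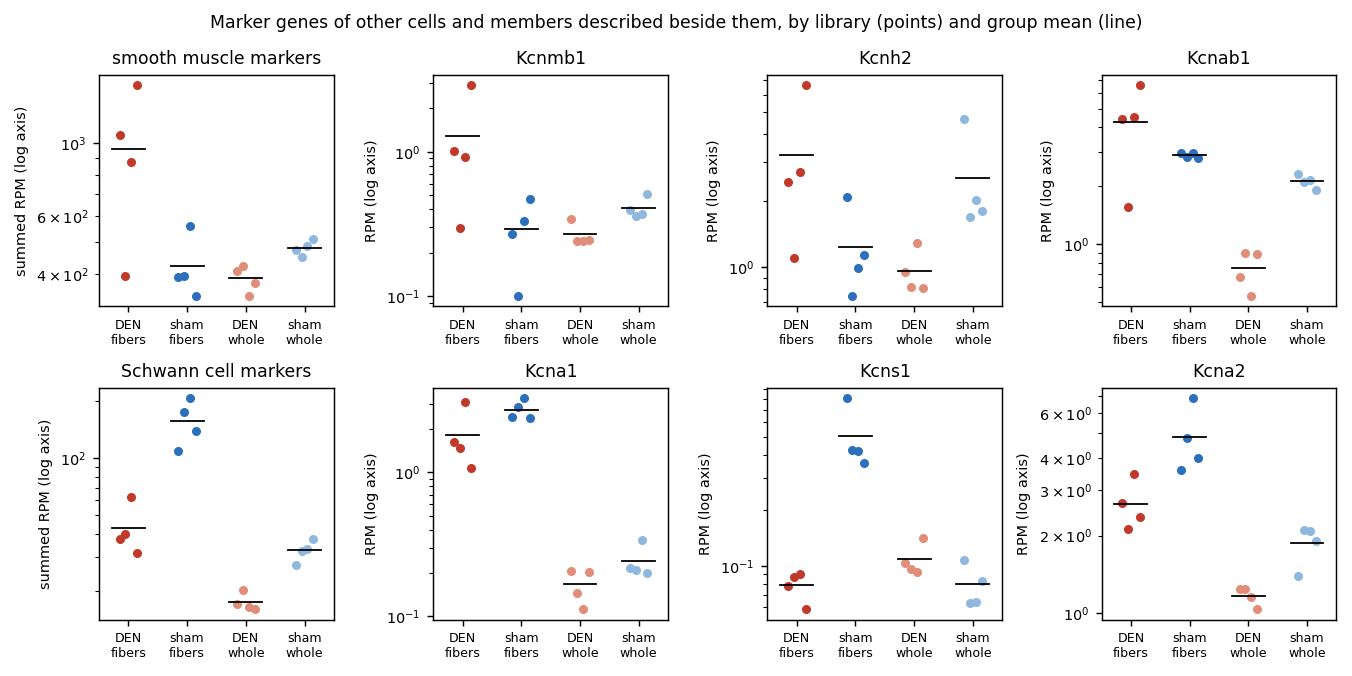
RPM on a log axis in each library (points; line = group mean), from left to right fibers after DEN and sham, then whole muscle after DEN and sham. The upper row sets summed smooth muscle and pericyte markers beside Kcnmb1, Kcnh2 and Kcnab1, with 1 low and 1 high DEN fiber library in each panel (393 and 1496 RPM for the markers), and the lower row sets summed Schwann cell markers beside Kcna1, Kcns1 and Kcna2, each with its highest mean in sham fibers.

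Kcnip2, a calcium-binding partner of Kcnd pores, was the only 1 of the 46 members called in opposite directions by DEN. It had 0.428, 0.403, 0.541 and 0.468 RPM in DEN fibers and 0.474, 0.503, 0.573 and 0.579 RPM in sham fibers (-0.70 ± 0.17, adjusted p = 0.00645). Its levels in whole muscle were 0.293, 0.338, 0.261 and 0.264 RPM after DEN and 0.0541, 0.0631, 0.128 and 0.0828 RPM after sham (1.34 ± 0.31, adjusted p = 0.00289). There it passed the filter on low counts through the DEN group, where it was higher. The fall in fibers was not called with total counts (-0.21, adjusted p = 0.349). The difference between preparations was -2.05 ± 0.31 (SE; adjusted p = 0.000345). Its pore Kcnd3 was tested in fibers only and not called (0.62 ± 0.38, adjusted p = 0.193), at 0.158 to 0.487 RPM in DEN fibers and 0.103 to 0.243 RPM in sham fibers. In all, the DEN response differed between preparations for 13 of 57 tested members (22.8%, against 18.9% of 17497 genes), 8 with a higher value in fibers (14.0%, against 7.09%) and 5 with a lower one (8.77%, against 11.8%). Of the 5, Kcns1 passed the filter on low counts through sham fibers and not in whole muscle, so its difference is not given.

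Members that did not pass either DEN test included Kcna5, a delayed rectifier of heart and smooth muscle. It had 12, 10.9, 14.4 and 12.1 RPM in DEN fibers and 7.57, 9.15, 12.9 and 9.28 RPM in sham fibers (-0.14 ± 0.12, adjusted p = 0.376). Whole muscle held 9.37, 9.42, 8.16 and 9.41 RPM after DEN and 6.35, 6.45, 10.8 and 9.71 RPM after sham (-0.31 ± 0.17, adjusted p = 0.127). The accessory subunit Kcne3 was tested in whole muscle only, at 0.0931 to 0.193 RPM after DEN and 0.162 to 0.294 RPM after sham (-0.95 ± 0.32, adjusted p = 0.0206). DESeq2 did not call it (adjusted p = 0.0600), nor did the fits without DEN library 1 or 3 or sham library 2 (adjusted p = 0.0557, 0.0544 and 0.0611).

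The second question was where the members are expressed in intact muscle. Between sham fibers (EDL) and sham whole muscle (TA), 30 of 50 tested members differed (60.0%, against 48.8% of 16005 genes). Of these 23 were higher in fibers (46.0%, against 25.5%) and 7 lower (14.0%, against 23.2%). The median log2 fold change was 0.46 over members and 0.003 over all genes. Part of the higher list belongs to neurons and glia by background knowledge. Kcna1 had 2.43, 2.84, 3.28 and 2.39 RPM in sham fibers and 0.216, 0.210, 0.337 and 0.199 RPM in sham whole muscle, a 10.9-fold difference (log2 3.45 ± 0.20 SE, adjusted p = 1.09e-06). All 8 Schwann cell markers were higher in sham fibers than in sham whole muscle, and their part in these differences was not tested. Other members higher in sham fibers included Kcne4, an accessory subunit, with 5.16 to 8.66 RPM in sham fibers and 1.24 to 1.69 RPM in sham whole muscle (2.26 ± 0.17, adjusted p = 6.47e-06). Kcnma1 was 2.88-fold higher (log2 1.53 ± 0.10 SE), with 38.6 to 43.6 RPM in sham fibers and 12 to 15.7 RPM in sham whole muscle, and its groups did not overlap.

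The 7 members lower in sham fibers were Kcnab2, Kcng4, Kcnj8, Kcnc4, Kcna7, Kcnj11 and Kcnn1. Kcng4 was 2.30-fold lower (log2 -1.20 ± 0.12 SE, adjusted p = 3.33e-05), Kcnc4 1.85-fold lower (log2 -0.89 ± 0.14 SE) and Kcna7 1.73-fold lower (log2 -0.79 ± 0.11 SE). Each of these also fell after DEN, as given above, in tests that share sham libraries with this one. Kcnab2, a beta subunit of Kcna pores, had 0.101 to 0.278 RPM in sham fibers and 0.399 to 0.883 RPM in sham whole muscle (-1.74 ± 0.33, adjusted p = 0.00179).

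**Figure D5:**
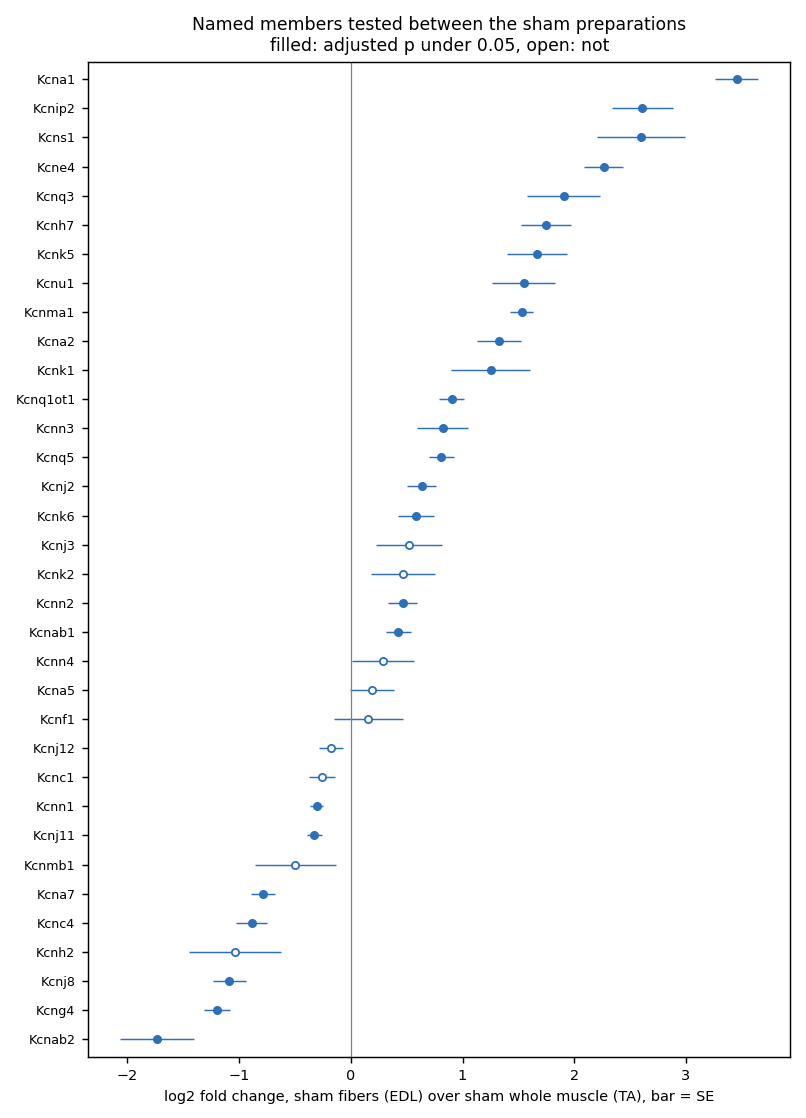
Log2 fold change of sham fibers (EDL) over sham whole muscle (TA) for the 34 members named in the text among the 50 tested, with SE bars and filled points for an adjusted p under 0.05. Filled points number 18 above 0, led by Kcna1 at 3.45, and 7 below 0.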

How the data were processed

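RNA was measured by directional, polyA-selected, single-end sequencing of 16 mouse libraries. Per the labels, the authors used bcl2fastq 2.20.0.422 for demultiplexing and cutadapt 2.1 for trimming, then aligned reads with TopHat2 2.1.0 to GRCm38 and counted reads on the gene strand with featureCounts 1.6.5. One alignment was kept per read, so reads shared by close relatives may sit on 1 copy. The deposited counts are whole reads per gene. The deposited RPM values are the counts of a gene scaled to the total of the library, and the deposited RPKM values of the authors add a gene length that the sources used here do not define. Depth was 47570214 to 62297405 counts. Libraries within groups differed beyond sampling noise (lowest mean chi-square per gene 13.2). No column belonged to other samples.

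Counts were tested with edgeR 4.0.16 in R 4.3.3: filterByExpr by group (minimum count 10), TMM scaling, the quasi-likelihood F-test and Benjamini-Hochberg adjustment over all genes tested, with calls at an adjusted p under 0.05. Each comparison was fitted on its own 8 libraries, and the difference of the DEN effects on all 16. Unlabelled values after a gene are log2 fold changes ± SE, the SE being derived from the F statistic. The script was tested on simulated data. RPKM served only for levels between genes, and intervals of levels are SD over 4 libraries. Loci are from GENCODE (GRCm38) and promoter windows from RefSeq. The members and lists were chosen with earlier results of these data known.

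Members were named if called without overlap in RPM and at a mean of at least 0.3 RPM (up to 12 per direction in each DEN comparison, up to 8 otherwise, the difference of effects without the overlap condition), if among the 8 highest by RPKM in a group, or if on a fixed list of 24. Some genes that the rule names are not reported here, and counts include them. Others named to complete a count were chosen after their values were seen. Alternatives were total counts only, RLE size factors, DESeq2 1.42.0, no low count filter, a replicate block, all 16 libraries in 1 fit, and leaving out each library.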

Additional observations from a re-analysis of the deposited data

Results flagged for a closer look

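In 113 checks of a named member in a group of 4 libraries, 6 found a library far from the other 3 by Dixon's criterion, which chance meets in about 1 of 20 groups. The DEN whole muscle library 3 was low for Kcna5 (8.16 RPM). The highest library stood apart for Kcnc4 in DEN fibers (80.8 RPM), Kcng4 in sham whole muscle (120 RPM), Kcnh2 in sham whole muscle (4.65 RPM), Kcnj3 in sham fibers (0.523 RPM) and Kcns1 in sham fibers (0.804 RPM).

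The DEN effect in fibers minus the DEN effect in whole muscle passed the test for 13 members, of which 11 are given here on the log2 scale. Kcns1 is left out because it did not pass the filter on low counts in whole muscle. It was positive for Kcna7 (0.76), Kcnab1 (1.98), Kcnc4 (0.55), Kcnh2 (2.68), Kcnj2 (0.75), Kcnj8 (0.69) and Kcnmb1 (2.65). It was negative for Kcnip2 (-2.05), Kcnk5 (-3.32), Kcnq1ot1 (-0.62) and Kcnq5 (-0.59). Kcnq1ot1 is a noncoding RNA of the imprinted Kcnq1 region and no channel subunit. The calls of Kcnc4 and Kcnj8 ended when single libraries were left out (9 and 8 of the 16).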

How the results depend on the processing

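No call of a named member turned its direction under any alternative run. With total counts only, Kcna1, Kcnip2, Kcnk1 and Kcnma1 lost their calls in fibers, Kcna1 and Kcne3 in whole muscle, and Kcnj8 (0.76, adjusted p = 0.0607) and Kcnq1ot1 (-0.55, adjusted p = 0.0544) in the difference of the DEN effects. The same scaling gave calls in fibers to Kcnd3 (1.10, adjusted p = 0.0300), Kcnh2 (1.38, adjusted p = 0.0306), Kcnmb1 (2.1, adjusted p = 0.0135) and Kcnn4 (0.89, adjusted p = 0.00407). Kcne4 (0.79, adjusted p = 0.00635) and Kcnk13 (1.34, adjusted p = 0.0123) also gained calls in fibers with this scaling. In whole muscle this scaling gave calls to Kcne4 (0.69, adjusted p = 0.00133) and Kcnab2 (0.74, adjusted p = 0.0236). It turned the direction of uncalled changes of Kcnj2 (0.25, now called, adjusted p = 0.0462), Kcna5 (0.35) and Kcnj8 (0.34) in fibers and of Kcna5 in whole muscle (0.12). Kcnmb1 in fibers was also called by DESeq2, without the low count filter, with the replicate block and with all 16 libraries in 1 fit (adjusted p = 0.0196, 0.0380, 0.00295 and 0.0148). The uncalled change of Kcnab1 in fibers turned with the replicate block (-0.055) and without DEN library 4 (-0.24, against up to 0.36 without any other library), and the uncalled difference of Kcnn3 turned without sham fiber library 1 (0.0046). Kcnj2 in fibers was called lower with the replicate block (-0.24, adjusted p = 0.0386) and without sham library 3 (-0.32, adjusted p = 0.0227). RLE size factors removed the call of Kcnc4 in the difference of the DEN effects (0.56, adjusted p = 0.0518), as did leaving out any of 9 of the 16 libraries in turn (adjusted p up to 0.0771), and the call of Kcnj8 there ended without any of 8 of them (adjusted p up to 0.0892). Single left-out libraries also ended the calls of Kcnab2 in fibers (any of 4 libraries, adjusted p up to 0.0796) and of Kcna1 in whole muscle (without sham library 3, -0.76, adjusted p = 0.0555). Without DEN fiber library 3, Kcnh1 did not pass the filter on low counts in fibers and was not tested. Leaving out 1 library gave 29 to 32 called members in fibers, 30 to 35 in whole muscle, 29 to 34 between the sham preparations and 11 to 14 for the difference of the DEN effects. The replicate numbers did not pair the libraries throughout: deviations of same-numbered DEN and sham libraries correlated at 0.08 to 0.39 in fibers and at -0.14 to 0.18 in whole muscle. Numbers 2 and 3 in fibers and 3 in whole muscle were each other's best match. Between fibers and whole muscle the correlations were -0.11 to 0.35 in sham and -0.06 to 0.34 in DEN. Sham numbers 1 and 2 and DEN numbers 1 and 4 were each other's best there. Whether EDL and TA shared mice was not tested, and the main tests treated libraries as independent. With a replicate block 34, 32, 34 and 17 members were called in the same order of comparisons, against 30, 33, 30 and 13 without it. All genes called numbered 9347, 10478, 8031 and 3451 with the block, against 9047, 10845, 7809 and 3307 without it. Not every library correlated best with its own number. Depth limits what can be said of the 40 untested members.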
